A study of Mus musculus with 7 samples.

Results

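The clustered histone genes are the genes of the count files whose symbol starts with Hist1h, Hist2h, Hist3h or Hist4h. They numbered 59 of the 22556 genes counted, with 6 H1, 14 H2A, 17 H2B, 10 H3 and 12 H4 genes. The large cluster on mouse chromosome 13 held 49 of them (Hist1h), chromosome 3 held 6 (Hist2h), chromosome 11 held 3 (Hist3h) and chromosome 6 held Hist4h4. Members were found by name alone, without use of any measured value.

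The data are ChrRNA-seq, the sequencing of RNA held on chromatin, of 7 libraries of female mouse embryonic stem cells (mESCs). These cells carry 1 genome of the domesticus strain 129/Sv (written Dom) and 1 of the castaneus strain CAST/EiJ (written Cast). In iXist-ChrX-Dom (4 libraries) a doxycycline-inducible TetOn promoter in place of the endogenous one drives Xist on the Dom X chromosome, and in iXist-ChrX-Cast (3 libraries) the same promoter sits on the X chromosome from Cast. All 7 libraries had 10 days of induction with 1 µg/mL doxycycline. The study also mentions a recombination event in the iXist-ChrX-Dom line that kept some genes from being evaluated by allele. Each derives from 1 clone, so a difference between the lines cannot be told apart from a difference between clones. No uninduced library was analysed here, so no effect of Xist itself can be read from these values. The cells had been grown on mitomycin C-treated mouse fibroblasts, which were removed by pre-plating. Replicates 3 and 4 of iXist-ChrX-Dom carry d1 in their descriptions but 10 days in their titles and treatment, and the files follow 2 naming schemes that part replicates 1 and 2 from 3 and 4. These 2 sets of replicates were compared as well. No label says that replicates came from separate cultures, so p-values measure the spread between these libraries, which may be technical.

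Histones package DNA into nucleosomes, each wound around H2A, H2B, H3 and H4, and H1 binds the linker between them. A dividing cell makes most of its histones in S phase, when the clustered genes are transcribed together in histone locus bodies under the coactivator NPAT. Their messages carry no introns and no poly(A) tail as a rule. They end instead after a short stem-loop that is bound by SLBP and cut with the help of the U7 small nuclear RNA. Libraries made after selection for poly(A) tails lose most of them, and the ribosomal RNA-depleted libraries used here do not select for a tail.

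The 3′ stem-loop is shown first because it sets these genes apart from nearly all others in sequence. A stem of 6 base pairs around a loop of 4 bases, searched for on the sense strand as GGNNCT and its exact reverse complement with TTTN between them, was found in the GENCODE M21 transcripts of 37 of 59 members (62.7%) and of 5 of 21278 other genes of the files (0.0235%). These counts take matches anywhere in a transcript. In the last 100 bases it was found in 17 members and 0 other genes. In the 37 members a median of 155 bases followed it, and 4884 in Hist1h1d. Transcript models of the other 22 members did not hold these letters. Sequence beyond the ends of the models was not searched, so these genes cannot be said to lack the stem-loop. There were 6 forms, given here as DNA, 5′ to 3′, with the stem in capitals. The form of Hist1h1d was found in 20 members of the H1, H2A, H2B and H3 classes, Hist1h3b among them, and that of Hist1h4d in 6 H4 genes, Hist4h4 among them. The form of Hist1h3e was found in 6 members, that of Hist1h4i also in Hist2h4, that of Hist1h4j also in Hist1h4b and that of Hist2h2ac in no other member.

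Hist1h1d stem-loop: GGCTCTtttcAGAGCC
Hist1h4d stem-loop: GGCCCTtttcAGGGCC
Hist1h3e stem-loop: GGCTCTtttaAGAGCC
Hist1h4i stem-loop: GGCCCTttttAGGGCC
Hist1h4j stem-loop: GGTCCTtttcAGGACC
Hist2h2ac stem-loop: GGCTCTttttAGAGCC

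The promoters (250 bases before the start to 50 after it, RefSeq, GRCm38.p6) matched 53 of 59 members. TATAAA stood in 33 of them (62.3%) against 13.6% of all 32851 promoters of that length, with both strands searched. CCAAT, the box bound by NF-Y, stood in 42 of the 42 promoters of H1, H2A, H2B and H3 genes, with a median of 3 matches, in 3 of 11 H4 promoters and in 37.4% of all promoters. The octamer ATTTGCAT, the site of POU factors such as OCT1, stood in 13 of 28 H2A and H2B promoters, in none of the H1, H3 or H4 ones and in 1.74% of all promoters. AAACACA, a box known from H1 promoters, stood in 5 of 6 H1 promoters and 7.18% of all promoters, and GGGCGG in 9 of 11 H4 promoters, 34% of all member promoters and 35.7% of all promoters. No matches of different motifs overlapped in these promoters. Windows of some H2A and H2B neighbours on opposite strands, such as Hist1h2ah and Hist1h2bk, cover nearly the same bases. A match there counts for both promoters, so these counts are not all of separate sites. The most expressed members of H1, H2B, H3 and H4 are shown, with Hist1h4f as an H4 gene without CCAAT. Capitals mark matches of TATAAA, of the NF-Y letters and of the octamer on either strand, wherever they lie in the window. The match in Hist1h4f is at the far end of the window from the start site. A match of letters is not a measured binding site.

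Hist1h1a promoter, chr13:23763418-23763717, plus strand: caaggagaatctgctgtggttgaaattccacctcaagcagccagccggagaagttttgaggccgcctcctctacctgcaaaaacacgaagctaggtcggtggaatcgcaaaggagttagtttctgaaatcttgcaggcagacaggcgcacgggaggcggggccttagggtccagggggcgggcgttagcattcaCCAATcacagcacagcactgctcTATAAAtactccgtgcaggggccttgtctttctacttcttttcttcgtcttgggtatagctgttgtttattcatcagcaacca
Hist2h2bb promoter, chr3:96269450-96269749, plus strand: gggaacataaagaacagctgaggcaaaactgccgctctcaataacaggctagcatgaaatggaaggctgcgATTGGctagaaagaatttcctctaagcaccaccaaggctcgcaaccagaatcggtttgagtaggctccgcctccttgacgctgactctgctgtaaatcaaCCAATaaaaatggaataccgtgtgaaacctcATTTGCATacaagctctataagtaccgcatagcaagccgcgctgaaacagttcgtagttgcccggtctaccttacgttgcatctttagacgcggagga
Hist1h3e promoter, chr13:23562336-23562635, minus strand: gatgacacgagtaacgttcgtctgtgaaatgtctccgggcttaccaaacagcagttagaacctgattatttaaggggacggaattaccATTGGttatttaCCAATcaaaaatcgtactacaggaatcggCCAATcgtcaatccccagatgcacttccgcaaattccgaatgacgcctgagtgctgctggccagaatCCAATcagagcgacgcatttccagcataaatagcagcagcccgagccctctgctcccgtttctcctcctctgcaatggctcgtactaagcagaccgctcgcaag
Hist1h4d promoter, chr13:23581318-23581617, plus strand: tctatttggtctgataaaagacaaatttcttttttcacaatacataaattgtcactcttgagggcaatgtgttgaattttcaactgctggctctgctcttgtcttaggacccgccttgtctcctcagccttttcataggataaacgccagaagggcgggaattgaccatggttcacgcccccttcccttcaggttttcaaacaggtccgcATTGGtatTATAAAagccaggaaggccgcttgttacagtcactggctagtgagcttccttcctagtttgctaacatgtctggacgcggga
Hist1h4f promoter, chr13:23551619-23551918, minus strand: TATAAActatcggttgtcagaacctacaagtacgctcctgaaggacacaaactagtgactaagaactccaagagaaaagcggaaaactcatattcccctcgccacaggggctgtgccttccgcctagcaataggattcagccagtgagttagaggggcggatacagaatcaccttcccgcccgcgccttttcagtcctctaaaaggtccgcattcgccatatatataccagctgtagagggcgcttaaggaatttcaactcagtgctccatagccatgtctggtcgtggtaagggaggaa

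The libraries held 14877384 to 24309806 counted fragments, of which 44.2% to 46.4% were given to 1 of the parental alleles. Members took 4593 to 15064 fragments per library, or 0.0309% to 0.062%, and 50 of 59 members had 100 or more fragments in all libraries together. Marker genes of embryonic stem cells were present in every library (Zfp42 at 372 to 600 and Nanog at 54.5 to 83.8 CPM), and 12 fibroblast marker genes together reached 68.4 to 94.1 CPM. They ran from Lum, at 0 in 4 libraries, to Fbln2 at 30.3 to 49.6 CPM. CPM are counts per 1000000 fragments, with library sizes scaled by the trimmed mean of M values (TMM).

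Histone genes of the H1 class took the most of the members' counted fragments. The 6 H1 genes took 38.1% to 49.1% of all member fragments, H2B genes 22% to 27%, H3 genes 10.1% to 14.1%, H4 genes 12.1% to 22.2% and the 14 H2A genes only 2.37% to 3.8%. Per length of gene model, Hist1h1a (H1.1; chr13, 23763667 to 23764412 on mm10) was the highest of all members, at 103 ± 27 CPM per kb (SD over the 7 libraries, here and below). Its level in iXist-ChrX-Dom was 116, 85.5, 67.1 and 62.8 CPM in replicates 1 to 4 and in iXist-ChrX-Cast 54.4, 74.1 and 77.5 CPM in replicates 1 to 3. Replicates 1 and 2 of iXist-ChrX-Dom stood above replicates 3 and 4 of that line and above all of iXist-ChrX-Cast.

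The second H1 gene was Hist1h1d (H1.3), at 70.6 ± 14.5 CPM per kb. Of the H2B genes, Hist2h2bb (chr3, 96269699 to 96270192) reached 87.8 ± 13.5 CPM per kb and Hist1h2bb 18.7 ± 4.29. The ranges of Hist1h1a, Hist2h2bb and Hist1h1d over the libraries overlapped, but within each library they stood in this order. Hist1h4d (chr13, 23581601 to 23581969) led the H4 genes at 54.2 ± 20.4 CPM per kb, before Hist1h4f at 24.8 ± 12.3 and Hist1h4i at 24.2 ± 8.96. Hist1h3e led the H3 genes at 36.8 ± 13.1 CPM per kb. The H3 genes next in order, Hist1h3b (11.6 ± 3.29), Hist1h3a and Hist1h3f (both 11.5), did not differ beyond their spread. The highest H2A genes, Hist2h2ac at 4.37 ± 3.14 and Hist1h2ab at 4.17 ± 1.62 CPM per kb, stood below the leading genes of the other classes.

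Near-identical copies limit these orders and the class shares. Only fragments with a single best position had been kept, and 50 of 59 members share more than 10% of their 81-base words, 1 sequencing read long, with a transcript of another annotated gene (median 34.6%). Hist1h1a and Hist1h1b share none, Hist1h4d 2.55%, Hist1h3e 56%, and Hist2h2bb and Hist2h3b share 100%, including with the annotated transcript Gm20628 that covers both. Levels of genes with many shared words are therefore uncertain. The classes differ in this as well. H1 genes share 0 to 27.5% (Hist1h1e) and H2A genes 10.4% (Hist1h2ac) to 91.4% (Hist1h2ah). Median model length is 761 bases for H1 and 480 for H2A. The part of shared words and length in the class shares was not tested. The shared words include those with annotated models over the same locus, as with Gm20628, which were not set apart from copies elsewhere. For 4 H2B genes the counted model is longer than the usual histone message, with Hist1h2be at 37456 bases, Hist1h2bc at 8283, Hist2h2be at 2619 and Hist1h2bp at 1727, so that their counts can include fragments from outside a short message.

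Members known from germ cells were near the lower end. Hist1h1t, the testis H1, had 0.482, 1.02, 1.17 and 0.663 CPM in the libraries of iXist-ChrX-Dom and 1.06, 1.02 and 0.902 in iXist-ChrX-Cast, and its level ran against the sum of the other members (Spearman's rho of -0.54 over 7 libraries, the lowest of the 50 members). Hist1h2aa and Hist1h2ba, which encode the testis forms of H2A and H2B and lie side by side at the end of the cluster, had 54 and 120 fragments in all. Their levels were 0.0703 to 0.745 CPM for Hist1h2aa and 0.281 to 1.45 CPM for Hist1h2ba. On chromosome 11, Hist3h2a had 0.563 to 2.15 CPM, Hist3h2ba 0.107 to 0.401 and Hist3h2bb-ps 0.0533 to 0.281, the last with 24 fragments in all. Hist4h4, alone on chromosome 6, had 1.2 to 4.71 CPM.

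The summed member level differed more between libraries of 1 line than between the lines. In iXist-ChrX-Dom it was 555, 612, 367 and 368 CPM in replicates 1 to 4. In iXist-ChrX-Cast it was 323, 518 and 589 CPM in replicates 1 to 3. The means were 476 ± 127 CPM (SD, n = 4) in iXist-ChrX-Dom and 477 ± 138 CPM (n = 3) in iXist-ChrX-Cast, and the ranges of the lines overlapped. Over the 50 members with 100 or more fragments, 24 were highest in iXist-ChrX-Dom replicate 2 and 16 in iXist-ChrX-Cast replicate 3, and 36 were lowest in iXist-ChrX-Cast replicate 1. The median Spearman's rho of a member with the sum of the others was 0.79 over the 7 libraries, which share depth and scaling with it.

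**Figure D1:**
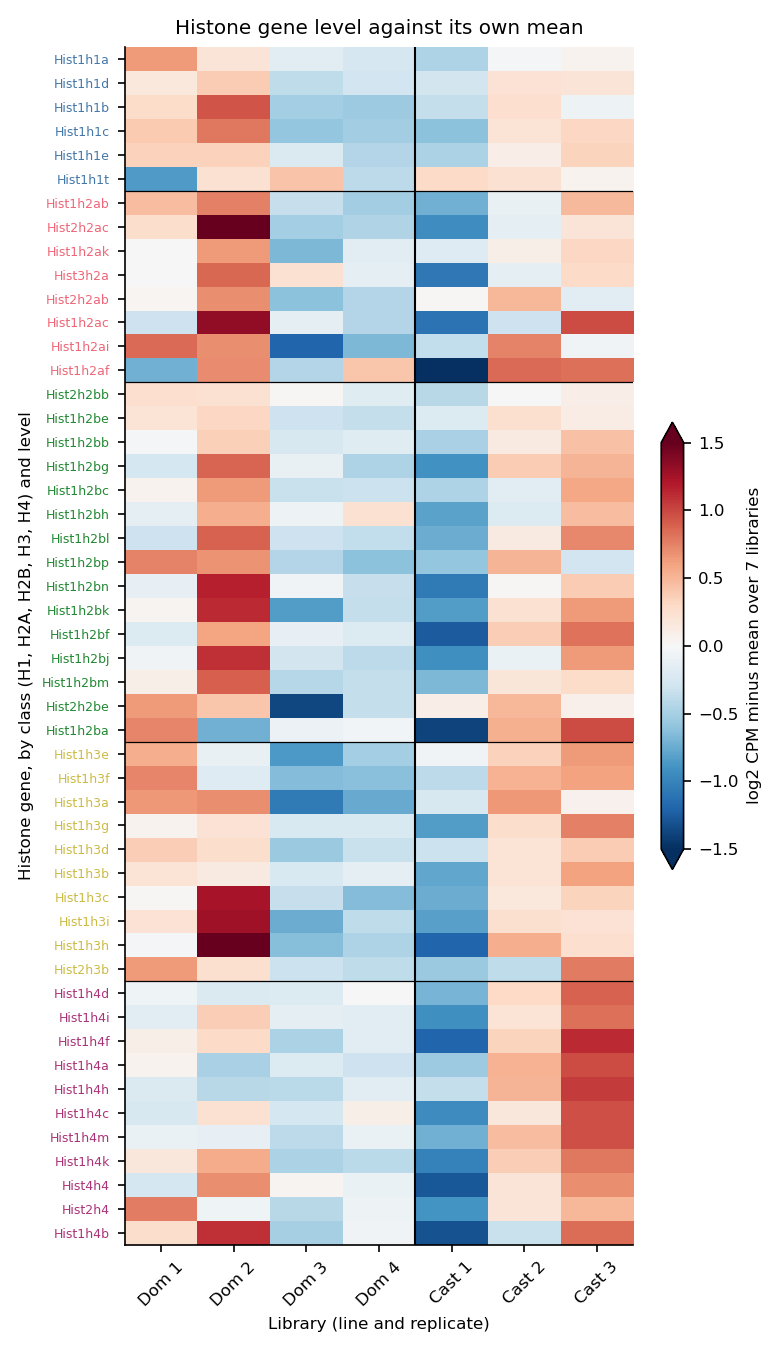
Each row is 1 of the 50 histone genes with 100 or more fragments and each column 1 of the 7 libraries, with colour giving log2 CPM minus the gene's mean over libraries (colours stop at 1.5 either way). Mostly red columns for iXist-ChrX-Dom replicates 1 and 2 (H1, H2A, H2B and H3 genes) and iXist-ChrX-Cast replicate 3 face mostly blue columns for iXist-ChrX-Dom replicates 3 and 4 and iXist-ChrX-Cast replicate 1, and the H4 rows are reddest in iXist-ChrX-Cast replicate 3.

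The H4 sum was highest in iXist-ChrX-Cast replicate 3, as was the H3 sum (81.5 CPM, against 77.1 and 73.5 CPM in iXist-ChrX-Dom replicates 1 and 2), while the H1, H2A and H2B sums were highest in iXist-ChrX-Dom replicate 2. Summed H4 levels were 69.2, 73.8, 57.3 and 64.1 CPM for iXist-ChrX-Dom and 40, 86.7 and 131 CPM for iXist-ChrX-Cast, so that replicate 3 of iXist-ChrX-Cast was the highest of all libraries, 3.27 times replicate 1. Summed H1 levels were 272, 285, 165 and 161 CPM in iXist-ChrX-Dom and 155, 225 and 225 CPM in iXist-ChrX-Cast, highest in iXist-ChrX-Dom replicates 1 and 2. Of the 11 H4 genes with 100 or more fragments, 8 were highest in iXist-ChrX-Cast replicate 3, against 0 of 6 H1 and 0 of 8 H2A genes, 3 of 15 H2B and 5 of 10 H3 genes.

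**Figure D2:**
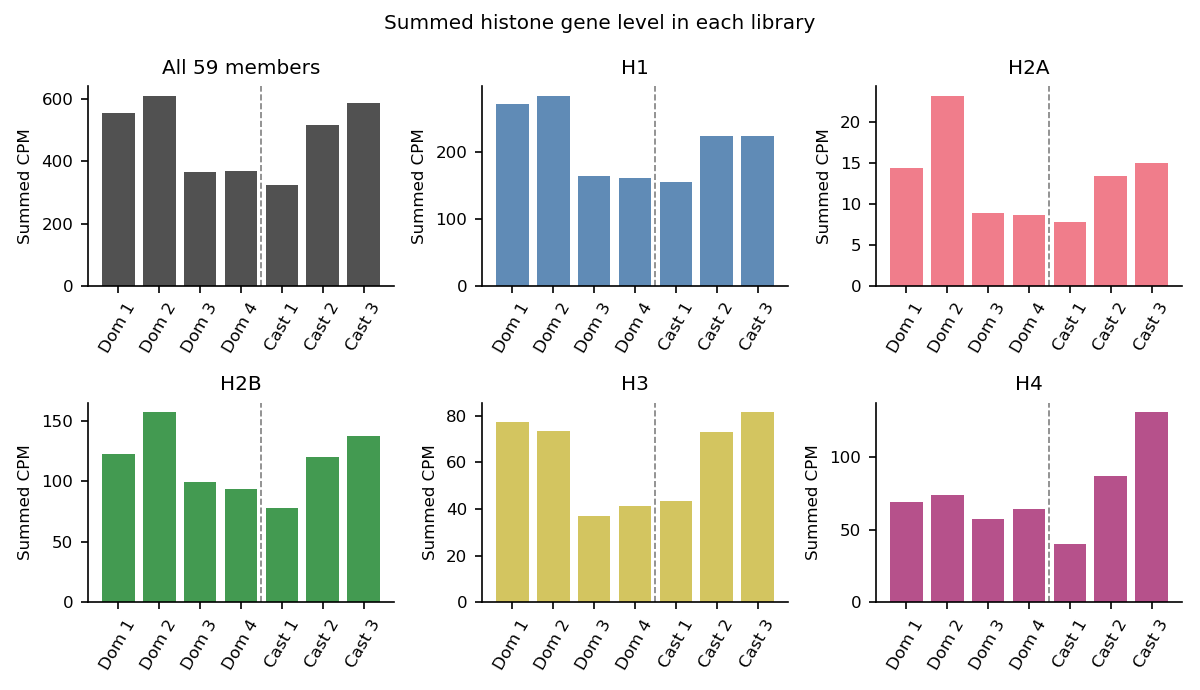
Bars give the summed CPM of all 59 members and of each class in every library, with the dashed line between iXist-ChrX-Dom and iXist-ChrX-Cast. The H1 sum is highest in iXist-ChrX-Dom replicates 1 and 2 (272 and 285 CPM), while the H4 sum is highest in iXist-ChrX-Cast replicate 3 (131 CPM).

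Other very short genes stood highest in the same library. The 1436 genes of 1 kb or less that are not members summed to 1185 to 1498 CPM in iXist-ChrX-Dom and to 1063, 1658 and 2795 CPM in iXist-ChrX-Cast, the last 2.63 times the first. H4 gene models are the shortest of the classes, with a median of 405 bases. The medians were 480 for H2A, 484 for H2B, 491 for H3 and 761 for H1. Replicate 3 of iXist-ChrX-Cast was 1.92 (H2A), 1.77 (H2B), 1.89 (H3) and 1.45 (H1) times replicate 1, against 3.27 for H4. The part of gene length in the H4 levels was not tested. Genes of DNA replication and S phase (20 genes) summed to 1881 to 2547 CPM, highest in iXist-ChrX-Cast replicate 2 and lowest in iXist-ChrX-Dom replicate 4, and genes of G2 and mitosis (11 genes) to 2336 to 2911 CPM. In bulk libraries, fewer cells in S phase and less histone RNA per cell cannot be told apart.

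**Figure D3:**
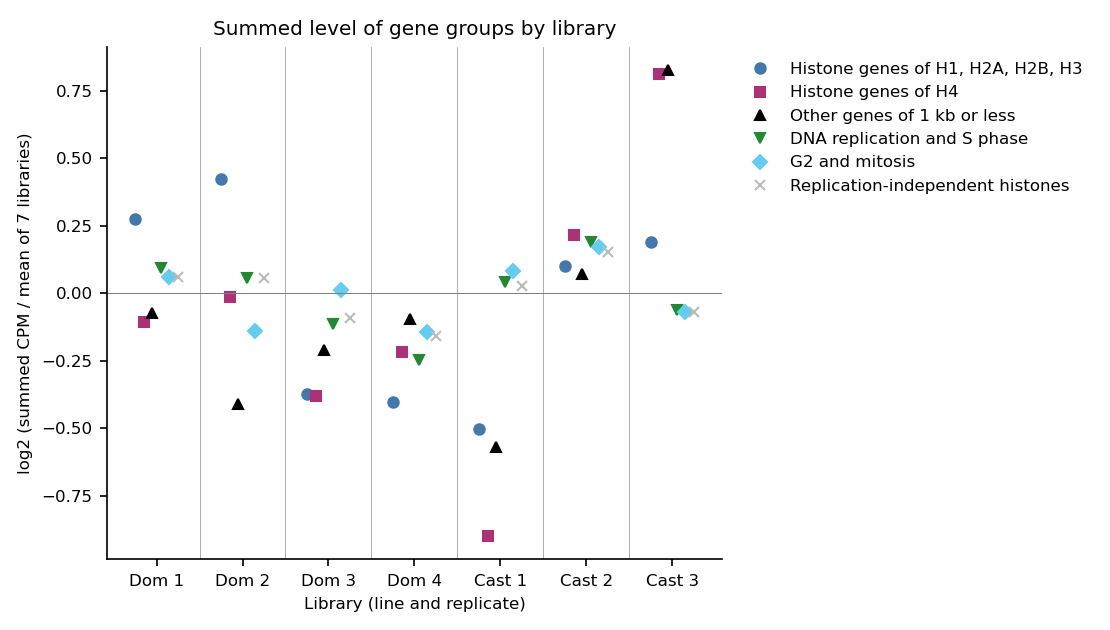
Points give, for each library, the log2 ratio of a gene group's summed CPM to its mean over the 7 libraries. In iXist-ChrX-Cast replicate 3 the H4 genes and the other genes of 1 kb or less stand highest, and the S phase, G2 and mitosis and replication-independent histone groups spread less over the libraries (highest over lowest 1.35, 1.25 and 1.24) than H4 (3.27).

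The first comparison asked whether histone genes differ between the 2 lines. The main fit held line alone, so differences between replicate sets count as spread in it. With edgeR's quasi-likelihood test and Benjamini-Hochberg adjustment, 0 of 55 members tested passed an adjusted p of 0.05, against 2.92% of 15186 genes (443). DESeq2 also called 0, and 2 of 55 members had an unadjusted p under 0.05, as did 2638 of all 15186 genes, a larger share. These were Hist1h4h (log2 difference, iXist-ChrX-Dom minus iXist-ChrX-Cast, -0.82 ± 0.27 SE, adjusted p = 0.148) and Hist1h4a (-0.68 ± 0.30, adjusted p = 0.272). The median difference of the members was -0.01 and ran from -0.82 to 0.71, and 27 were positive and 28 negative.

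Hist1h4h had 5.13, 4.47, 4.48 and 5.26 CPM in iXist-ChrX-Dom and 4.64, 8.46 and 12.3 CPM in iXist-ChrX-Cast. The lowest iXist-ChrX-Cast library lay among those of iXist-ChrX-Dom. With the replicate number as a block, Hist1h4h was called lower in iXist-ChrX-Dom (-0.78 ± 0.22, adjusted p = 0.0173 in edgeR) and was the 1 member called, while 11.8% of all genes were. With the replicate set as a covariate Hist1h4h (-0.85 ± 0.21, adjusted p = 0.0106) and Hist1h4a (-0.70 ± 0.23, adjusted p = 0.0464) were called lower, beside 15.8% of all genes. In replicates 1 and 2 alone other members were called, and Hist1h4h and Hist1h4a were not. Then 4 of 57 members were higher in iXist-ChrX-Dom and 0 lower, beside 11% of all genes called in either direction. They were Hist1h1a, Hist1h4b, Hist2h2ac and Hist1h1c, which were picked out after their values were seen.

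The second comparison set replicates 3 and 4 against 1 and 2 over both lines. Of 57 members tested, 0 rose and 6 fell (10.5%), while 29.0% of 15890 genes were called and 13.3% fell. Those that fell were Hist1h3a (-1.0 ± 0.25 SE, adjusted p = 0.00682 in edgeR), Hist1h2bp (-0.91 ± 0.23), Hist1h1b (H1.5; -0.72 ± 0.20), Hist1h2ad (-1.44 ± 0.45), Hist1h2ai (-1.14 ± 0.38) and Hist2h2be (-0.85 ± 0.30), each on the log2 scale. Hist1h3a, an H3.1 gene, had 8.2, 8.53, 2.51 and 3.11 CPM in iXist-ChrX-Dom and 4.43, 8.21 and 5.46 CPM in iXist-ChrX-Cast. Its sets did not overlap in iXist-ChrX-Dom, whereas in iXist-ChrX-Cast replicate 3 lay between the other libraries. The count rested on single libraries, since it was 0 without iXist-ChrX-Dom replicate 3, 2 without replicate 4 and 3 without replicate 1 of that line, and in iXist-ChrX-Cast it was 12 without replicate 1 and 24 without replicate 3. Without iXist-ChrX-Dom replicate 2, 3 members fell and 2 rose, Hist1h4c (0.72, adjusted p = 0.0375) and Hist1h2bh (0.57, adjusted p = 0.0417).

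Taken line by line, the members' medians had opposite signs. Within iXist-ChrX-Dom, 24 of 57 members (42.1%) were lower in replicates 3 and 4 and 0 higher, against 15.8% of all genes called and 7.38% called lower, with a median log2 difference of -0.76 (all genes, -0.00). Within iXist-ChrX-Cast, where 1 library stands against 2, 9 of 57 members (15.8%) were higher in replicate 3 and 0 lower, against 18.3% of all genes called and 10.2% called higher, with a median of 0.59 (all genes, 0.02). Both came from a fit of line, set and their product to the 7 libraries, chosen after the data were seen.

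**Figure D4:**
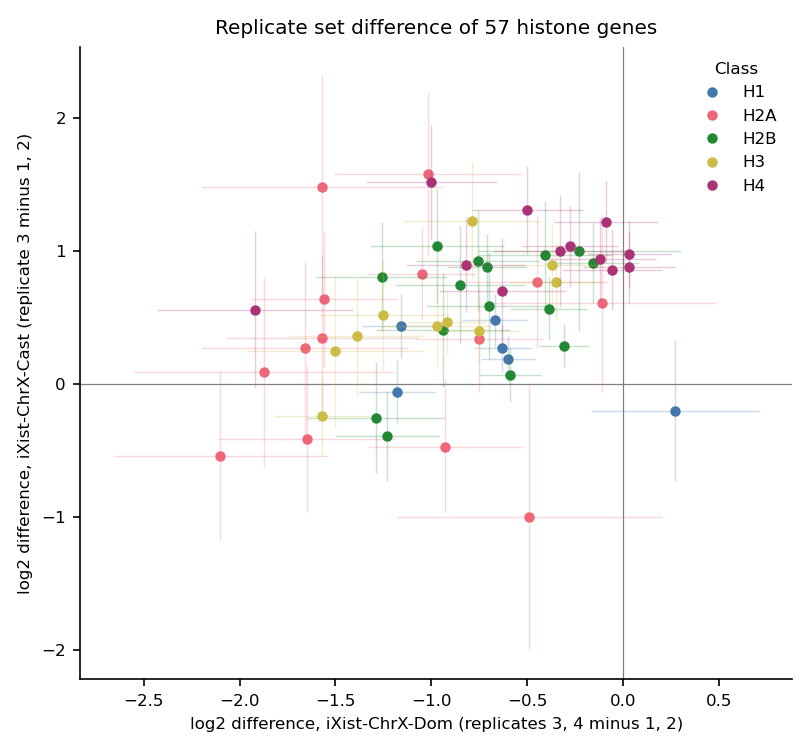
Each point is 1 of the 57 histone genes tested, with the log2 difference between replicate sets in iXist-ChrX-Dom on the x axis and in iXist-ChrX-Cast on the y axis, and bars of 1 SE. Of the points, 54 lie left of 0 and 48 lie above 0, and H4 genes sit to the upper right, with medians of -0.30 (x axis) and 0.96 (y axis).

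Within iXist-ChrX-Dom members of every class fell, and the classes were not tested against each other. Of H1 genes 5 of 6 fell, of H2A 6 of 14, of H2B 5 of 15 tested, of H3 7 of 10 and of H4 1 of 12, where 10 of 12 differences were negative with a median of -0.30. Hist1h1b fell most clearly among the H1 genes, by 1.18 ± 0.20 (adjusted p = 0.00109 in edgeR), with 38.1 and 60.5 CPM in replicates 1 and 2 and 22.1 and 21.5 CPM in replicates 3 and 4. Hist1h1c (H1.2) had 33.6 and 44.3 CPM against 17.1 and 17.8 CPM (-1.16 ± 0.20, adjusted p = 0.00128). The sets did not overlap in either gene.

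Among the members called, the greatest falls were in 4 H2A genes, 1 H4 gene and 1 H3 gene. They were Hist1h2ad (-2.10 ± 0.56), Hist1h4j (-1.92 ± 0.51), Hist1h2ag (-1.66 ± 0.54), Hist1h2ai (-1.65 ± 0.46), Hist1h3a (-1.57 ± 0.25) and Hist1h2ae (-1.57 ± 0.50). All but Hist1h3a were low, with 69 to 120 fragments in the 7 libraries together, and Hist1h2ad had 0.833 and 0.772 CPM against 0.16 and 0.204 CPM. The smallest called falls were in Hist1h2be (-0.59 ± 0.16), Hist1h1d (-0.60 ± 0.14), Hist1h1a (-0.63 ± 0.15), Hist1h1e (H1.4; -0.67 ± 0.17), Hist1h2bc (-0.71 ± 0.21) and Hist1h3d (-0.75 ± 0.21). The count fell to 3 without iXist-ChrX-Dom replicate 3 and to 3 without replicate 4, to 14 without replicate 2 and to 12 with DESeq2, and these called members were all lower.

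Within iXist-ChrX-Cast 6 of the 9 members called higher in replicate 3 were H4 genes. Hist1h4f had 3.52 and 10.1 CPM in replicates 1 and 2 and 17.4 CPM in replicate 3 (1.31 ± 0.33, adjusted p = 0.0131 in edgeR). Hist1h4d had 11.7 and 23.4 CPM against 35.1 CPM (0.98 ± 0.25, adjusted p = 0.0138). In both genes replicate 3 was the highest and replicate 2 lay between the other libraries.

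The other called members were Hist1h4b (1.52 ± 0.43), Hist1h4c (1.22 ± 0.31), Hist1h4i (1.04 ± 0.30), Hist1h2bh (0.91 ± 0.30), Hist1h3g (0.90 ± 0.30), Hist1h2bc (0.88 ± 0.25) and Hist1h4h (0.88 ± 0.27). Without iXist-ChrX-Cast replicate 1 Hist1h4f alone was called (0.76 ± 0.22) and the members' median was 0.28, and without replicate 2 there were 21 and the median was 1.19. Leaving out a library of iXist-ChrX-Dom gave 18 (replicate 1 or 2), 4 (replicate 3) or 6 (replicate 4), and DESeq2 gave 1, Hist1h4c. Across the 53 single-block members of 1 kb or less that were tested, the difference in iXist-ChrX-Cast was larger for shorter models (Spearman's rho of -0.54 across genes, which are not independent, and -0.37 over the 41 that are not H4), and the part of length in these calls was not tested.

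The third comparison tested whether the set difference itself differs between the lines. With edgeR's interaction term 0 of 57 members passed, against 0.0441% of all genes (7 of 15890), DESeq2 called 1 member, Hist1h3e, and 45 members had an unadjusted p under 0.05, as did 1562 of the 15890 genes. The median difference of the members, iXist-ChrX-Dom minus iXist-ChrX-Cast, was -1.33 on the log2 scale against -0.02 over all genes, and 55 of 57 were negative, as were 52% of all genes. Hist1h1c came nearest in edgeR (-1.60 ± 0.31, adjusted p = 0.0949). The number called was 15 without iXist-ChrX-Dom replicate 1, 4 without replicate 2 and 8 without iXist-ChrX-Cast replicate 2, all of them negative.

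Genes that act on histone RNA or histones were called in both directions. Of the genes of histone mRNA 3′ processing and transcription, 16 of 17 listed were counted. In iXist-ChrX-Dom 3 were higher in replicates 3 and 4, Zfp473 (0.73 ± 0.16), a component of the U7 complex, Sympk (0.46 ± 0.12) and Upf1 (0.40 ± 0.11), and Eri1, an exonuclease of histone mRNA ends, was lower (-0.29 ± 0.10). In iXist-ChrX-Cast Upf1 (0.75 ± 0.13) and Sympk (0.75 ± 0.14) were higher in replicate 3 and Npat was lower (-0.40 ± 0.12). Slbp itself ran from 50.8 to 86.3 CPM and was called in neither line.

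Of 15 histone chaperones, 1 fell and 0 rose in iXist-ChrX-Dom, Asf1a (-0.54 ± 0.10). In iXist-ChrX-Cast 3 rose and 3 fell, among them Daxx (0.87 ± 0.18) and Chaf1a (0.43 ± 0.12) upward and Asf1a (-0.76 ± 0.13) and Nasp (-0.62 ± 0.13) downward. Of 20 genes of DNA replication and S phase, 4 fell and 0 rose in iXist-ChrX-Dom, among them Pcna (-0.42 ± 0.11), Mcm6 (-0.34 ± 0.10) and Gins2 (-0.49 ± 0.16). In iXist-ChrX-Cast 3 fell, among them Mcm6 (-0.63 ± 0.12) and Ccne2 (-0.56 ± 0.14), and Cdt1 rose (0.45 ± 0.14). The list's median set difference was -0.24 in the former line and -0.03 in the latter.

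Among 11 G2 and mitosis genes 0 were called in iXist-ChrX-Dom, where Top2a was the highest (748 to 905 CPM), and in iXist-ChrX-Cast Cenpf fell (-0.46 ± 0.13) and Cdc20 rose (0.54 ± 0.17). Of 11 replication-independent histone genes, which are transcribed outside S phase as well, H2afy rose in both lines (iXist-ChrX-Dom 0.36 ± 0.12 and iXist-ChrX-Cast 0.50 ± 0.14), and H3f3a fell in iXist-ChrX-Cast (-0.66 ± 0.12). Of 11 fibroblast markers tested 3 fell in iXist-ChrX-Dom, Tagln (-1.97 ± 0.21), Acta2 (-2.33 ± 0.62) and Col3a1 (-0.79 ± 0.23), and Fbln2 rose (0.48 ± 0.16). Acta2 had 13.7 CPM in replicate 1 and 1.67, 1.92 and 1.12 CPM in replicates 2 to 4, so that its difference lay in replicate 1. In iXist-ChrX-Cast 0 were called. The part of these cells in the histone values was not tested. Of 12 stem cell markers 2 rose in iXist-ChrX-Dom, Zfp42 (0.46 ± 0.09) and Esrrb (0.31 ± 0.10), and in iXist-ChrX-Cast 3 rose, Dppa5a (0.91 ± 0.25), Pou5f1 (0.79 ± 0.16) and Klf2 (0.66 ± 0.19), and Tfcp2l1 fell (-0.45 ± 0.12). Between the lines, Tyms (-0.55 ± 0.11), Mcm7 (-0.62 ± 0.13), Tbx3 (-1.06 ± 0.12) and Tdgf1 (-0.52 ± 0.11) were lower in iXist-ChrX-Dom and Mcm5 was higher (0.41 ± 0.09), and 0 genes of the 3′ processing, chaperone, mitosis, replication-independent or fibroblast lists were called.

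Genes that lie between members of the chromosome 13 cluster were counted as a local comparison. There were 51, of which 36 were vomeronasal receptor genes (Vmn1r), 23 of these listed at 0 in all libraries, and 7 of the 51 had 100 or more fragments. Zfp322a had 60.7 to 79.6 CPM, Zfp184 7.81 to 12.1 and Abt1 6.94 to 11.1. None of these 3, the most expressed, was called between replicate sets, while 4933404K08Rik, with 97 fragments, was lower in replicates 3 and 4 of iXist-ChrX-Dom (-1.65, adjusted p = 0.02 in edgeR) and C230035I16Rik was at -0.59 (adjusted p = 0.0534). Both were picked out after their values were seen. Zfp322a had a log2 difference of -0.06 (iXist-ChrX-Dom) and -0.13 (the other line), Zfp184 -0.14 and -0.52, and Abt1 -0.21 and -0.03.

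The allelic columns asked from which parental chromosome the histone RNA came. They gave no answer for a stretch in the middle of the chromosome 13 cluster. Its 11 neighbouring members from Hist1h4h to Hist1h2bf (chr13, 23531043 to 23574190, 43.1 kb) had 0 allelic fragments among 17413, and for Hist1h1d this was 0 of 7821, which allows a share of up to 0.0384%. Hist1h4d, a little further on, had 0 of 2822. In all, 15 members had 0 allelic fragments and 16 under 1%, with 3 of these on chromosome 3, where Hist2h2bb had 0 of 6173. Of 13919 autosomal genes with 100 or more fragments 0.963% had under 1%, of the 50 other genes of 1 kb or less 10%, and the median was 52.6% against 35.7% for members.

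The same lack reached beyond the histone genes. The 5 other genes with 50 or more fragments just before the stretch, Zfp322a, Abt1, C230035I16Rik, Btn2a2 and 4933404K08Rik, of which the last 3 were picked out after their values were seen, had 106 allelic fragments among 12224 together. Zfp184, at the other end of the cluster, had 750 of 1455. No Cast share is given for members without allelic fragments. A low Cast or Dom count here says nothing about expression from either allele.

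**Figure D5:**
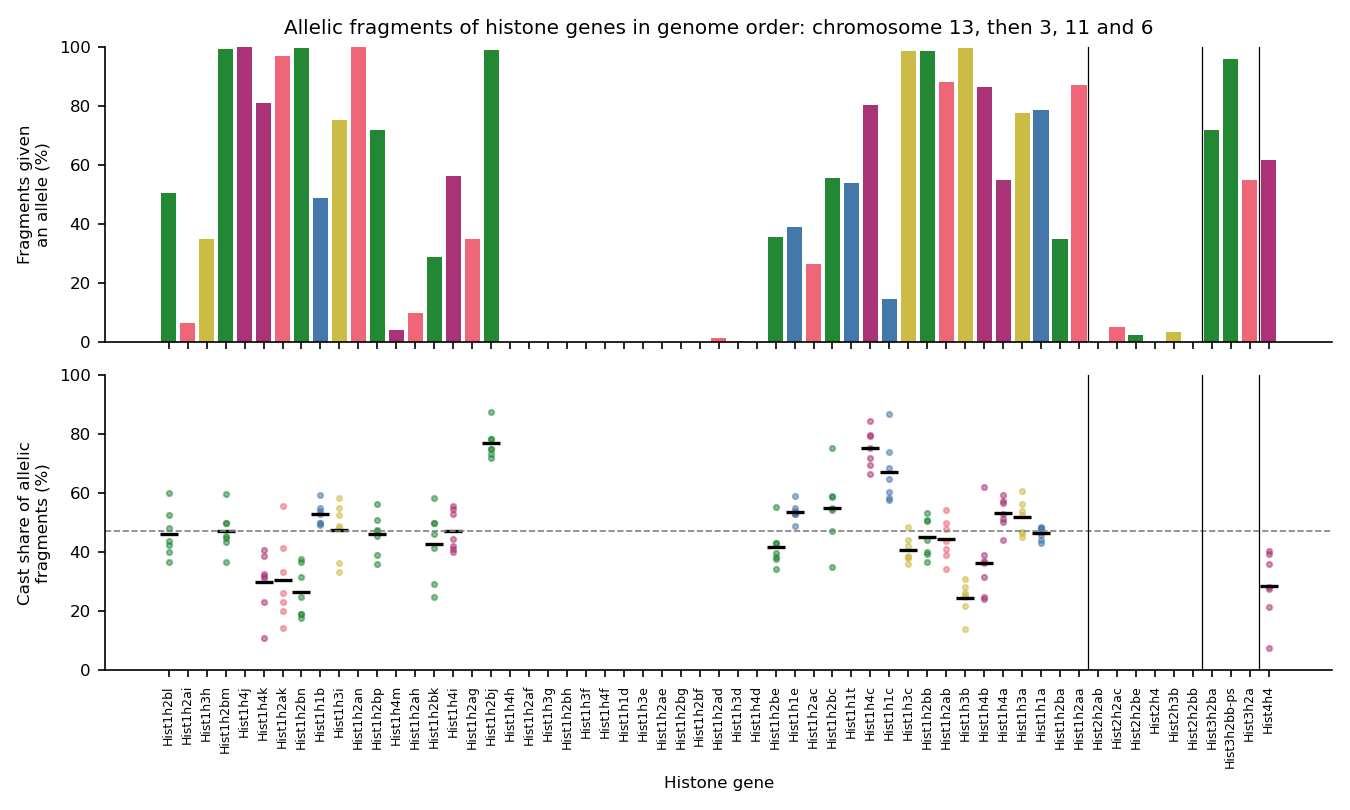
The upper bars give the share of each member's fragments that was given to an allele and the lower points its Cast share in each of the 7 libraries, with black marks for the means, the dashed line for the autosomal median and members in genome order. Bars are at or near 0 from Hist1h4h to Hist1h4d, and Cast shares are drawn for members with 8 or more allelic fragments in every library.

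Where alleles could be read, members differed widely, within 1 cluster and within 1 class. Of 27 members tested, 7 were higher from Cast and 7 lower (25.9% each). Of 12585 autosomal genes 33.4% were higher and 30.9% lower, 64.3% in either direction. Only 15 members had 20 or more allelic fragments in every library. With 1 library size per sample for both alleles, which moves the median log2 ratio of all genes from 0.01 to -0.14, the split was 5 higher and 9 lower. In the 7 libraries the median Cast share of the 10786 autosomal genes with 20 or more allelic fragments in each was 47.1% to 48.1%. That of other chromosome 13 genes was 47.1% to 47.6%.

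Of the 27 members tested, Hist1h2bj and Hist1h4c were the most Cast-sided. Hist1h2bj had 261 Cast and 81 Dom fragments, a Cast share of 77% ± 5.22 (SD, n = 7) with a lowest value of 71.8%, a median of 75% and a highest of 87.5%, and a log2 difference of 1.83 ± 0.18 SE (adjusted p = 4.71e-09 in edgeR). Hist1h4c had 451 and 165, a share of 75.3% ± 6.44 with 66.4% as the lowest, and 1.62 ± 0.14 (adjusted p = 6.03e-10). Both lay above the autosomal median in 7 of 7 libraries. In its lowest library Hist1h2bj had 16 allelic fragments.

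Of the 27 members tested, Hist1h3b was the most Dom-sided. Hist1h4m, which was not tested, had 0 Cast fragments of 24, which allows a share of up to 12.5%. Hist1h3b had 185 Cast and 579 Dom fragments, a share of 24.5% ± 5.47 running from 14% to 31.1%, and a log2 difference of -1.56 ± 0.13 (adjusted p = 3.51e-10 in edgeR). Below the autosomal median in 7 of 7 libraries were also Hist1h2bn (26.7% ± 8.63, -1.06 ± 0.17), Hist1h4k (30% ± 10.1, -1.02 ± 0.18) and Hist4h4 (28.7% ± 11.6, -1.0 ± 0.21). Hist4h4 lies on chromosome 6, where other genes had a median of 45.6% to 46.7%. Hist1h2ak (30.6% ± 14.1, -1.08 ± 0.26) was below the autosomal median in 6 of 7. In their lowest library Hist1h4k had 18, Hist1h2ak 15 and Hist4h4 13 allelic fragments. Their shares in single libraries are therefore rough.

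Apart from Hist1h1c, the other called members stood nearer to balance. Of the H1 genes, Hist1h1c had 67.3% ± 10.4 (0.97 ± 0.17), Hist1h1e 53.8% ± 2.99 (0.35 ± 0.10) and Hist1h1b 52.9% ± 3.57 (0.32 ± 0.07), each above the median in 7 of 7 libraries. Hist1h2bc had 55% ± 12.2 (0.65 ± 0.18) and was above it in 5 of 7. Hist1h4a had 53.2% ± 5.21 (0.30 ± 0.12) and was above it in 6 of 7. Hist1h3c had 40.9% ± 4.27 (-0.33 ± 0.13) and Hist1h2be 41.8% ± 6.76 (-0.33 ± 0.12), each above it in 1 of 7. The best covered member, Hist1h1a, had 4025 Cast and 4661 Dom fragments and a share of 46.4% ± 2.15, and was not called. Over the 15 members with 20 or more allelic fragments in every library, 2 were below 30% and 1 above 70%, against 5.39% and 3.12% of 10786 autosomal genes.

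The share of 81-base words also found in other genes was 48% for Hist1h2bj, 16.2% for Hist1h4c, 58.1% for Hist1h3b, 67.8% for Hist1h2bn and 67.2% for Hist1h4k. Only 14.5% of the fragments of Hist1h1c were given to an allele, against 99.5% for Hist1h3b. The part of the alignment of near-identical copies in these shares was not tested. Of 10 fibroblast markers tested by allele, 0 were higher from Cast and 6 lower, with a median log2 difference of -1.15. Of all autosomal genes 30.9% were lower. The part of fibroblast RNA in the members' shares was not tested.

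The last comparison asked whether the allelic ratio of a member differs between the lines. None of 27 members passed (0, edgeR), against 14.3% of 12585 autosomal genes, DESeq2 also called 0, and 3 of 27 had an unadjusted p under 0.05, as did 2814 of the 12585 genes, a larger share. These were Hist1h2bb (0.49 ± 0.20, iXist-ChrX-Dom minus iXist-ChrX-Cast), Hist1h3b (0.62 ± 0.29) and Hist1h4b (-0.97 ± 0.45). Without iXist-ChrX-Dom replicate 1, Hist1h2bb was called (0.67 ± 0.19). For Hist1h1a the Cast share was 47% ± 2.02 (SD, n = 4) in iXist-ChrX-Dom and 45.7% ± 2.52 (n = 3) in iXist-ChrX-Cast. In the lists around the members such differences between the lines were called, as for Mcm5 (1.10 ± 0.07), Mcm7 (-0.98 ± 0.06) and Slbp (-1.03 ± 0.09). In total counts Mcm5 (0.41 ± 0.09) and Mcm7 (-0.62 ± 0.13) differed between the lines in the same direction, and Slbp was not called. The part of chromosome copy number in these calls and in the 14.3% was not tested.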

How the data were processed

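ChrRNA-seq libraries had been made from the chromatin fraction with a stranded total RNA kit. Per the methods of the authors, ribosomal reads were removed with Bowtie2 2.3.2, the rest were aligned with STAR 2.4.2a to mm10 with strain variants masked, unique fragments were split by allele with SNPsplit, and featureCounts 1.5.2 counted fragments per whole gene, introns included. The deposited values are raw counts per gene, in total and for each allele. Deposited tables of allelic ratio (fraction) for X-linked genes served only to tell which allele column is Cast.

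Counts were fitted with edgeR 4.0.16 (quasi-likelihood, TMM, filterByExpr, two-sided, Benjamini-Hochberg over all genes tested, adjusted p below 0.05) on R 4.3.3 and tested on simulated data. DESeq2 1.42.0, other scalings, no filter, a replicate block and leaving out each library were the alternatives. Allelic fits held sample as a block and autosomal genes only. Gene lists covered replication-independent histones, histone mRNA 3′ processing and transcription, histone chaperones, DNA replication and S phase, G2 and mitosis, embryonic stem cell markers and fibroblast markers. Called members were all named up to 12 per comparison, otherwise the 6 highest and 6 lowest, with the 2 highest of each class per kb, the 4 highest and 4 lowest Cast shares, the germ cell and outlying members and up to 4 genes per other list. Members and lists were chosen with earlier results of these data known.

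Deviations from the line means correlated between same-numbered libraries of the lines with r of 0.272, 0.171 and 0.554, each over 0.1, which met the limit set for taking the numbers as pairs. Differently numbered pairs within replicates 1 and 2 had r of 0.3 and 0.266, so the data do not tell a shared number from a shared replicate set. The main fit between the lines used no pairs, and the replicate block was an alternative. Library pairs differed by a chi-square of 6.51 to 39.9 per gene, so none was a duplicate. Limits at 0 counts use 3 counts and cover counting error only.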

Additional observations from a re-analysis of the deposited data

Results flagged for a closer look

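In the 4 libraries of iXist-ChrX-Dom, replicate 2 stood apart from the others for 3 members. Hist1h2bn had 8.53 CPM there and 3.51, 3.68 and 3.01 CPM in replicates 1, 3 and 4. Hist1h4i had 11.9 CPM against 8.2, 8.32 and 8.27, and Hist1h2bj 4.55 CPM against 2.06, 1.76 and 1.63. The gap to the nearest library took 0.879, 0.968 and 0.853 of the range. These were 3 of 66 groups looked at (4.55%), and chance gives about 5%.

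For 5 of 6 sums, levels moved in opposite directions between replicate sets in the lines, with every library of replicates 3 and 4 below replicates 1 and 2 in iXist-ChrX-Dom and replicate 3 above both others in iXist-ChrX-Cast. The log2 ratio in iXist-ChrX-Dom minus that in iXist-ChrX-Cast was -1.15 for all members (-0.67 and 0.49), -1.59 for H2A (-1.10 and 0.49), -1.01 for H2B (-0.53 and 0.47), -1.44 for H3 (-0.95 and 0.49) and -1.28 for H4 (-0.24 and 1.05). The H1 sum, the largest, was not among them, since replicates 2 and 3 of iXist-ChrX-Cast both had 225 CPM. The difference between the lines was not tested for these sums, and the test of single members called 0.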

How the results depend on the processing

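Of 53 calls of a member in a comparison, 439 values under alternatives kept the call 300 times, lost it 139 times and reversed 0 times. Between the lines, members called numbered 0, 1 with the replicate block, 2 with the replicate set as a covariate and 4 in replicates 1 and 2 only, and genes called 443, 1794, 2398 and 1685, with 1094 by DESeq2 and 18 to 1206 when a library was left out. For the replicate set, 6 members became 2 with DESeq2, 15 without a filter on low counts (2 higher, 13 lower), 26 with iXist-ChrX-Dom only and 0 to 24 when a library was left out, and 4606 genes became 2851 with iXist-ChrX-Dom only and 2518 without iXist-ChrX-Cast replicate 3. Within iXist-ChrX-Dom, 24 became 12 with DESeq2 and 3 to 27 without 1 library (2512 genes, 305 to 2875), and within iXist-ChrX-Cast, 9 became 1 with DESeq2 and 1 to 21 without 1 library (2908 genes, 1552 to 3412). For the difference of set effects, 0 became 1 with DESeq2 and 0 to 15 without 1 library (7 genes, 30 and 1 to 52). For Cast against Dom, 14 became 9 with 20 allelic fragments in every sample, where 15 and not 27 members were tested, and 11 to 13 without 1 library. For allele by line, 0 became 0 to 1. The mean summed level of iXist-ChrX-Dom replicates 3 and 4 was 368 CPM and 366 CPM with library totals alone. Apart from Hist1h4h, the replicate block changed no member's call between the lines. The cause of these changes was not tested, apart from the smaller numbers of genes or libraries named. Within iXist-ChrX-Cast a single library stands for replicates 3 and 4 and is assumed to vary like the others, and low members (under 100 fragments in all) have wide errors.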
